A study of Homo sapiens with 8 samples.

Results

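PRSS53 is a human gene for a serine protease, and the 9 genes described here are PRSS53, the read-through gene that runs into it from upstream (ENSG00000255439) and 7 neighbours on chromosome 16, out of 22554 features in the deposited tables. Of the 9, 2 were chosen for their values: PRSS53 was 1 of 4 features higher with LDL past the threshold of a test across all features (0.0259% of those tested), with the largest increase of the 4, and the read-through gene was lower but not among the 6 features past the threshold in that direction (0.0389%). The other 7 (VKORC1, BCKDK, KAT8, ZNF646, PRSS8, PRSS36 and STX4) were chosen by position. The values of the first pair are therefore given as a description with no test, and tests are given only for the 7 neighbours.

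SKOV3, a long-established human ovarian carcinoma line, was profiled by mRNA sequencing. A 48 h exposure to low-density lipoprotein (LDL, 50 µg/mL) in 4 samples was set against 4 samples kept in ordinary medium, called control here. The labels name no other agent and no engineered allele, and all 8 samples grew in McCoy's 5A with antibiotics and 10% fetal bovine serum, which itself carries lipoproteins. Nothing in the labels tells separate cultures from repeated libraries of one culture. The p-values set group differences against the scatter of these samples only, and that scatter may be technical.

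A trypsin-like serine protease cuts proteins after basic residues and is usually made as an inactive precursor. PRSS53, also called polyserase-3, joins more than one protease domain in a single chain, and it is known from the hair follicle. A read-through transcript starts at one gene, runs past its normal end and is spliced into the next gene on the same strand. Such a transcript shares exons with the upstream and the downstream gene. Short reads from a shared exon fit the read-through gene and the gene that shares it equally well. VKORC1, the upstream gene here, encodes the vitamin K epoxide reductase that recycles vitamin K and is the target of warfarin.

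Facts of all libraries come first. Total counts ran from 34682501 to 36780334 in LDL samples and from 37189698 to 44883561 in control samples, with no overlap in depth between the groups. The line's markers ERBB2, EPCAM, KRT7, KRT8, KRT18 and PAX8 were all present, with ERBB2 at 2515 CPM (counts scaled to library depth) in LDL and 2590 CPM in control samples, and CDKN2A, which the line has lost, had no count. Of 14 markers of leukocytes, fibroblasts, hepatocytes and endothelium, PTPRC, MS4A1 and TTR had no count, and the list summed to 221 to 480 CPM in LDL and 418 to 445 CPM in control samples, mostly from COL1A1 (323.8 CPM in LDL and 354.3 CPM in control samples); its part in the results was not tested. The first principal component set LDL sample 4 apart, with a score of 46.05 where the other 7 samples scored -17.37 to 1.856. Without LDL sample 1 the number of features past the threshold was 149 instead of 10. In the values of PRSS53 given below, neither LDL sample 1 nor LDL sample 4 stood apart from the other LDL samples. In such bulk samples, fewer cells with a transcript and less of it per cell cannot be told apart.

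The layout of the genes sets what the counts can tell apart. In GENCODE release 29 on GRCh38, PRSS53 (ENSG00000151006) covers bases 31083425 to 31089628 of chromosome 16 and is read from the minus strand. VKORC1 (ENSG00000167397), upstream and in the same orientation, covers 31090842 to 31095980, and 1213 bases separate the annotated genes. The read-through gene spans both, from 31083439 to 31094956. It has 3 annotated transcript models of 13, 5 and 2 exons, with 2362, 725 and 499 bases. The 13-exon model is annotated as a target of nonsense-mediated decay, and the shorter models are annotated as protein coding.

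Besides its protein-coding model, PRSS53 has models with retained introns, of 5489 and 1782 bases. The 5489-base model begins at 31089628, the annotated start of the gene, and the protein-coding model at 31088963. This protein-coding PRSS53 messenger RNA has 11 exons and 2181 bases. Of these, 1955 bases (89.6%) are also in the 13-exon read-through model, where they make up 82.8% of it, while 407 bases of that model lie in VKORC1 exons. Only 226 bases of the 11-exon PRSS53 model lie outside the 13-exon read-through model, and 212 of them are the first PRSS53 exon. The models have 9 identical exons in common, and a read inside one of these carries no mark of where its transcript began.

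**Figure D1:**
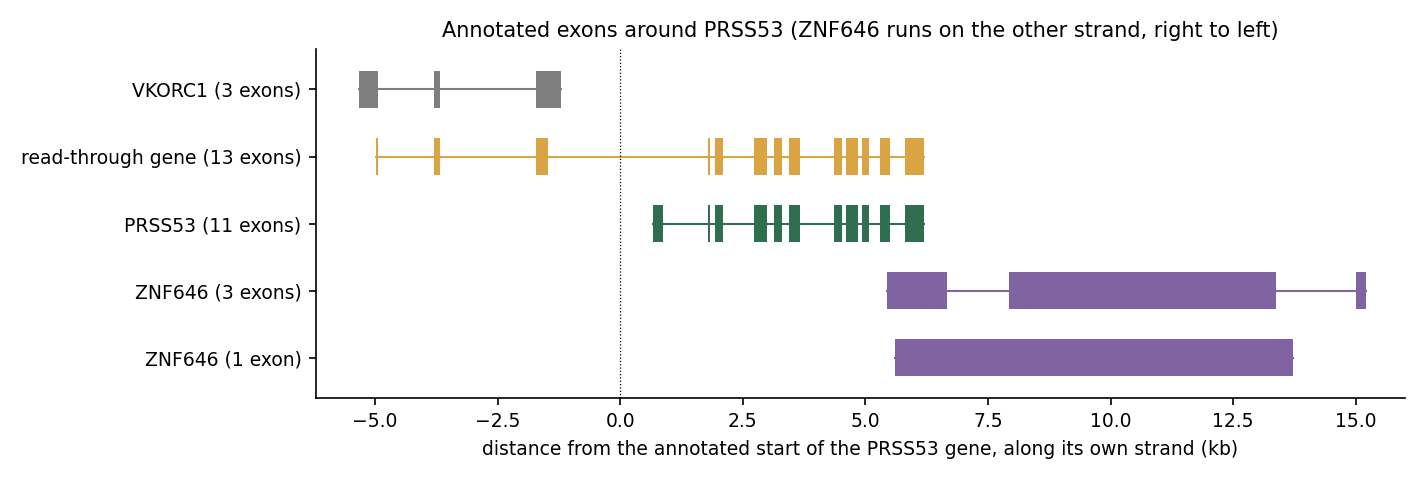
Annotated exons (boxes) and introns (lines) of 5 transcript models, drawn to scale, against distance in kb from the annotated start of the PRSS53 gene along its strand. The read-through model uses VKORC1 exons on the left and the PRSS53 exons on the right and skips only the first PRSS53 exon; the 3′ end of ZNF646, on the other strand, overlaps the last PRSS53 exons.

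The junctions that do tell the genes apart are shown here because little else in the sequence separates them. Each line gives 30 bases across a splice junction, read 5′ to 3′ on the minus strand of chromosome 16 from the GENCODE release 29 transcripts (GRCh38). Lower case is the end of the upstream exon and capitals are the first 15 bases of the downstream exon.
PRSS53, first to second exon: cagtcctcatggaggGTCTTCAAGCCGCTC
Read-through, 13-exon model, VKORC1 last exon to second PRSS53 exon: atctgctttgctttgGTCTTCAAGCCGCTC
Read-through, 5-exon model, VKORC1 middle exon to second PRSS53 exon: tacagctattgttagGTCTTCAAGCCGCTC
Read-through, 2-exon model, VKORC1 first exon to exon 4 of PRSS53: cgtcttctcctccagGGCAGCAGCAACAGA
VKORC1, middle to last exon: tacagctattgttagGTTGCCTGCGGACAC
The first 3 lines end in the same capitals, because PRSS53 and both longer read-through models use the same acceptor, at base 31087826. They differ only in the donor, which lies at 31088752 for PRSS53, at 31091092 for the 13-exon model and at 31093312 for the 5-exon model. The third and the last line begin with the same bases, since the 5-exon model leaves VKORC1 at the donor that VKORC1 itself uses. The donor of the 13-exon model lies inside the last VKORC1 exon, beyond the end of its coding sequence (last coding base 31091137), and the model leaves out the final 250 bases of that exon.

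The starts of the 2 genes differ in composition. The 250 bases upstream of each RefSeq start are shown, on the minus strand of GRCh38.p14, because a PRSS53 transcript begins beside the first and a read-through transcript in the gene that begins beside the second. Capitals mark a match to CCAAT.
PRSS53, chr16:31088944-31089193: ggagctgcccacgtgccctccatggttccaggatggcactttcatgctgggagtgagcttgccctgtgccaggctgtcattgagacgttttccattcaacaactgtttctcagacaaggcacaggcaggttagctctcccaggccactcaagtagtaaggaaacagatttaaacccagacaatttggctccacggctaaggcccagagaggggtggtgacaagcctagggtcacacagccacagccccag
VKORC1, chr16:31094798-31095047: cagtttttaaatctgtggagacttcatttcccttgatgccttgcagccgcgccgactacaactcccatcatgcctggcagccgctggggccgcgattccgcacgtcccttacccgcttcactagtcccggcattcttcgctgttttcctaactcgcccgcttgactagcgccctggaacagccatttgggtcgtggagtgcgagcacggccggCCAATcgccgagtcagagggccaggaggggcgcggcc
The PRSS53 window held 3 CG dinucleotides and 55.2% G or C, and the VKORC1 window held 22 and 61.6%, against medians of 11 and 58.0% over 35116 such windows. Searched on both strands, the motif CCAAT was found 1 time at VKORC1 and was not in the PRSS53 window, and 32% of all windows hold it. The motif GGGCGG, held by 42.6% of windows, was in neither window. The motif TATAAA, held by 10.7%, was in neither window. A match describes letters only and is not a binding site. In GENCODE the first exon of the 11-exon PRSS53 model, 31088752 to 31088963, reaches into the PRSS53 window. The annotated PRSS53 gene, up to 31089628, spans that window. The first exon of a 3-exon VKORC1 model, 31094557 to 31094957, reaches into the VKORC1 window and takes in the CCAAT match. The 5-exon and 2-exon read-through models start at 31094956 and 31094916, also inside the VKORC1 window.

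PRSS53 itself had far higher counts with LDL. Its counts were 121, 102, 121 and 100 in LDL samples 1 to 4, against 4, 11, 3 and 17 in control samples 1 to 4. That is 3.15 ± 0.285 CPM in LDL and 0.212 ± 0.149 CPM in control samples (SD, n = 4 each). The 4 LDL samples lay close together and every one was several times above the highest control sample. The ratio of means was 14.8, and the log2 fold change in edgeR was 3.86 (SE 0.379). Per length, the gene stood at 1.40 ± 0.126 FPKM (fragments scaled to transcript length and library depth) in LDL and 0.0900 ± 0.0663 FPKM in control samples (SD, n = 4 each), so it was a weakly expressed gene in both groups.

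The read-through gene showed the reverse. Its counts were 0, 0, 13 and 0 in LDL samples 1 to 4, against 143, 172, 201 and 307 in control samples 1 to 4. A count of 0 allows up to 3 counts, which is 0.0811 to 0.0872 CPM in the LDL libraries. The means were 0.0937 ± 0.187 CPM in LDL and 5.03 ± 1.43 CPM in control samples (SD, n = 4 each), and the groups did not overlap. LDL sample 3 was the only LDL library with any count, and it decides the fitted size: the log2 fold change in edgeR was -5.72 (SE 0.887) with all samples and -10.59 without LDL sample 3, where the LDL libraries left are all at 0 and the value rests on the prior count. Control sample 4 had the most, 307 counts, and control sample 1 the fewest of the controls.

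**Figure D2:**
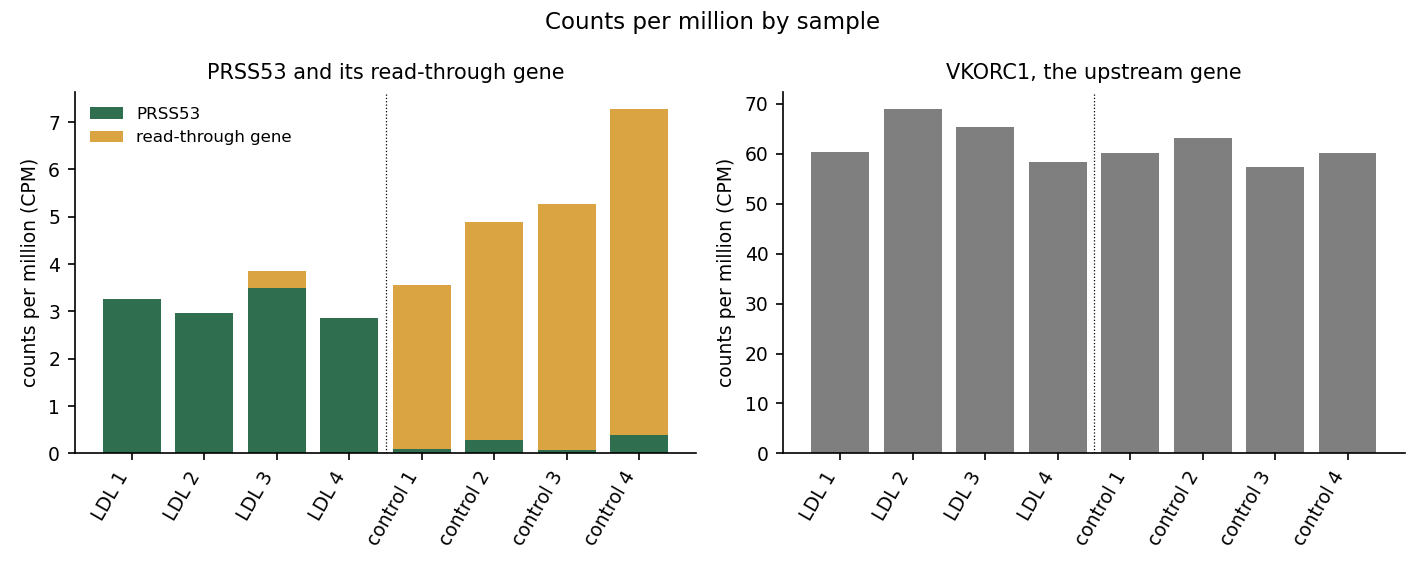
CPM in each of the 4 LDL and 4 control samples: at left PRSS53 (green) with the read-through gene (yellow) stacked on it, at right VKORC1 on its own axis. Nearly all of the shared stack belongs to PRSS53 in the LDL samples and to the read-through gene in the control samples, and the height of the LDL stacks, 2.87 to 3.86 CPM, overlaps that of the control stacks, 3.56 to 7.27 CPM.

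Seen as a split of a common pool, the counts went almost wholly to one gene or the other. PRSS53 took 100% of the summed counts of both genes in LDL samples 1, 2 and 4 (exact Clopper-Pearson 95% intervals from 97.0%, 96.4% and 96.4% up to 100%) and 90.3% in LDL sample 3 (84.0% to 94.7%). In control samples 1 to 4 it took 2.72%, 6.01%, 1.47% and 5.25%, and the upper limits of the intervals were 6.82%, 10.5%, 4.24% and 8.27%. No sample had an even split. The intervals cover counting error only.

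The sum of both genes was not higher with LDL. The 2 genes added up to 121, 102, 134 and 100 counts in LDL samples 1 to 4, against 147, 183, 204 and 324 in control samples 1 to 4. In CPM the sum was 3.24 ± 0.449 in LDL and 5.25 ± 1.54 in control samples (SD, n = 4 each). LDL sample 3, at 3.86 CPM, lay above control sample 1, at 3.56 CPM, so the groups overlapped, with the other LDL samples below every control. The log2 fold change of the sum was -0.69 (SE 0.200), and without control sample 4, the highest, it was -0.50. In FPKM the sums were 1.51 ± 0.329 in LDL and 2.28 ± 0.885 in control samples (SD, n = 4 each).

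The sums that include VKORC1 hardly differed between groups. The read-through gene and VKORC1 together stood at 63.3 ± 4.84 CPM in LDL and 65.2 ± 2.56 CPM in control samples (SD, n = 4 each), with a log2 fold change of -0.042 (SE 0.0628). All 3 genes together stood at 66.5 ± 4.90 CPM in LDL and 65.4 ± 2.70 CPM in control samples (SD, n = 4 each), with a log2 fold change of 0.023 (SE 0.0622). VKORC1 makes up most of both sums, so they say little about the weaker pair. The read-through gene held 0%, 0%, 0.570% and 0% of its sum with VKORC1 in LDL samples 1 to 4, against 5.46%, 6.77%, 8.30% and 10.3% in control samples 1 to 4.

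**Figure D3:**
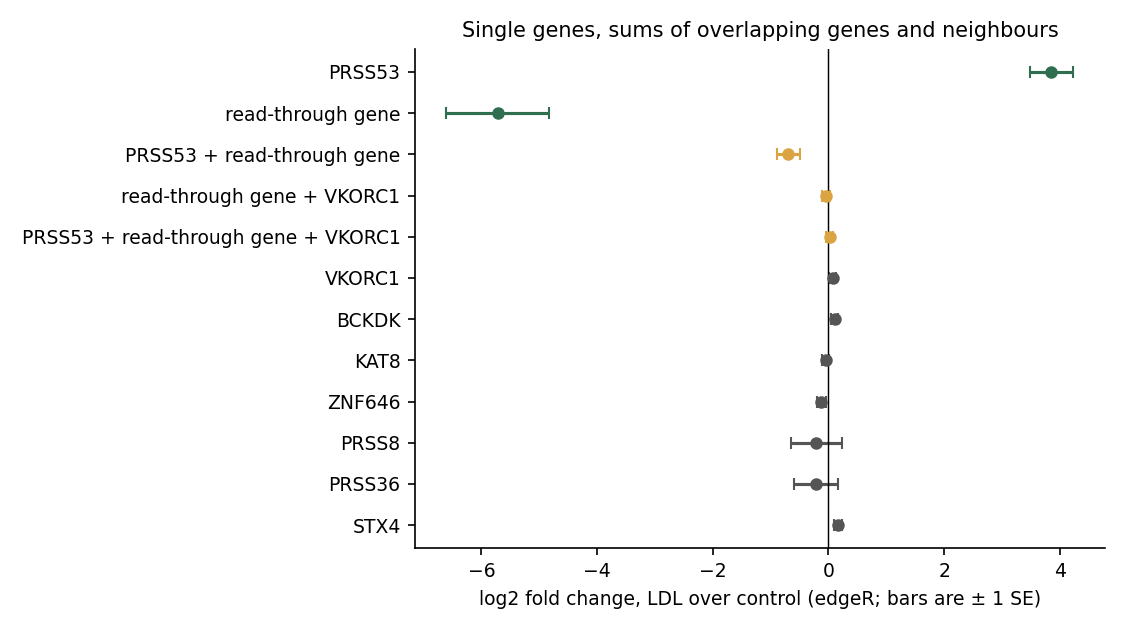
Log2 fold change of LDL over control in edgeR (points) with 1 SE on each side (bars) for PRSS53 and the read-through gene (green), sums of overlapping genes (yellow) and the 7 neighbours (grey). PRSS53 at 3.86 and the read-through gene at -5.72 lie far out on opposite sides, while their sum lies at -0.69 and the sums with VKORC1 lie near 0.

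A second reading of the same libraries comes from the 2 deposited tables together. A count divided by its FPKM and by the library total gives the transcript length that the 2 tables imply for that feature in that library. Over 554 genes with 1 annotated transcript, this implied length was 1.049 times the annotated one at the median (quartiles 1.035 and 1.058), and all lengths below are divided by that 1 median and by nothing else. After this, 73.8% of the 554 genes came out within 5% of their annotated length.

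For PRSS53 the implied length was 2117, 2148, 2175 and 2156 bases in LDL samples 1 to 4, close to the 2181 bases of its 11-exon model. In control samples 1 to 4 it was 2444, 2246, 2377 and 2180 bases, from counts of 3 to 17 at which rounding to whole counts moves the value. For the read-through gene the implied length was 2358, 2393, 2282 and 1943 bases in control samples 1 to 4, against 2362 bases for the 13-exon model and 725 and 499 for the others. Control samples 1 and 2 therefore sat near the 13-exon model, and control sample 4 sat below it. The 13 counts of LDL sample 3 had an implied length of 775 bases, near the 5-exon model. Where a transcript began is carried by the 212 bases of the first PRSS53 exon and by the junctions shown above. The deposited values do not give counts for these alone.

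**Figure D4:**
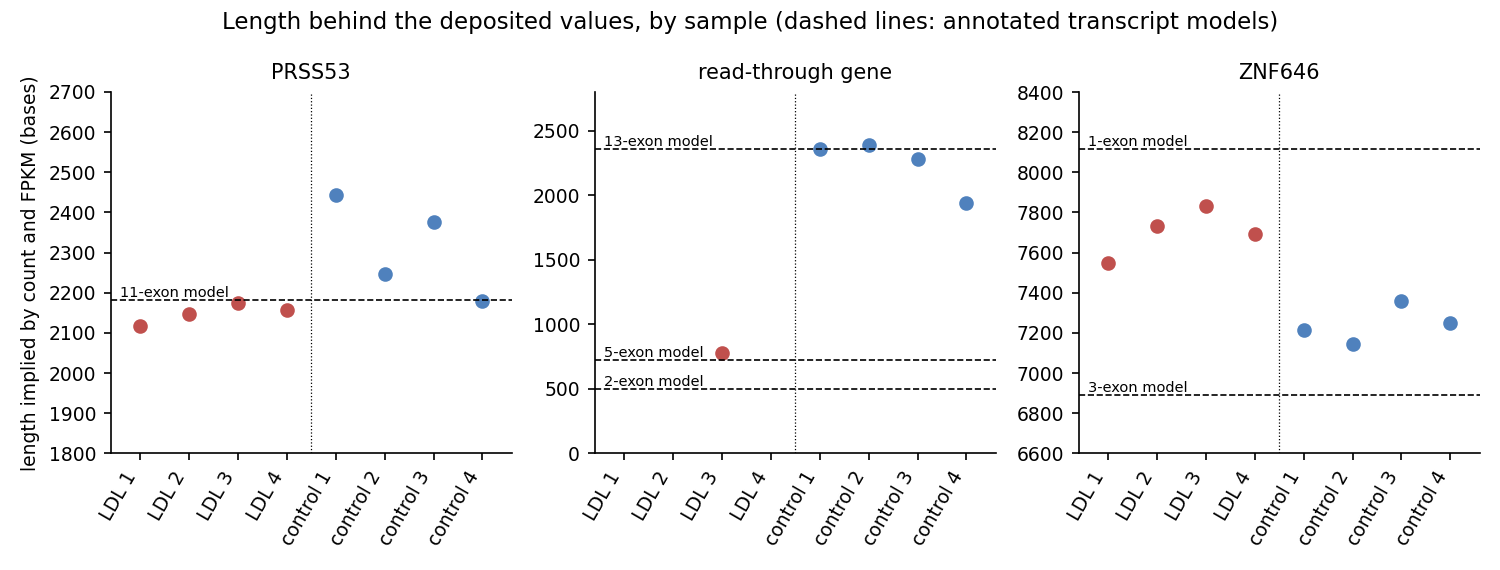
Length in bases implied by count and FPKM in each LDL (red) and control (blue) sample for PRSS53, the read-through gene and ZNF646, with the annotated transcript models as dashed lines; the vertical axes do not start at 0 for PRSS53 and ZNF646, and samples at a count of 0 have no point. PRSS53 in LDL samples lies at 2117 to 2175 bases beside its 11-exon model, and ZNF646 lies at 7547 to 7834 bases in LDL and 7147 to 7361 bases in control samples.

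The 7 neighbours were compared next. In edgeR, 10 of 15432 features passed an adjusted p of 0.05, or 0.0648%, and none of the 7 neighbours did. At an unadjusted p under 0.05 there was 1 of the 7, STX4, against 5.59% of all features, and neither DESeq2 nor limma voom called any of the 7. In CPM no neighbour had groups that did not overlap, against 3.45% of all features. Exact two-sided permutation p-values for the single neighbours, unadjusted, ran from 0.1143 to 0.6286, where 4 against 4 samples can reach 0.0286.

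VKORC1 had 2231, 2370, 2267 and 2033 counts in LDL samples 1 to 4, against 2477, 2367, 2220 and 2678 in control samples 1 to 4. It stood at 63.2 ± 4.78 CPM in LDL and 60.2 ± 2.37 CPM in control samples (SD, n = 4 each), with overlapping groups. In edgeR its log2 fold change was 0.072 with an SE of 0.0631 (adjusted p = 0.926). Per length VKORC1 was at 68.3 ± 3.84 FPKM in LDL and 65.2 ± 3.16 FPKM in control samples, the highest level of the 9 genes, while the read-through gene that starts in its exons had 0.115 ± 0.230 FPKM in LDL and 2.19 ± 0.837 FPKM in control samples (SD, n = 4 each). Its implied length, 861 to 920 bases in LDL and 872 to 889 bases in control samples, overlapped between groups.

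ZNF646, a zinc finger gene on the plus strand from 31074422 to 31084196, meets PRSS53 end to end. Its 3-exon model overlaps PRSS53 exons on the other strand by 463 bases and its 1-exon model by 385 bases. The kit marks strand per the labels, but the strand setting of the counting is not given in the sources used here, so reads there cannot be assigned with certainty. Counts were 1179, 956, 900 and 932 in LDL samples 1 to 4, against 1227, 1097, 1172 and 1480 in control samples 1 to 4. LDL sample 1, at 31.9 CPM, lay within the control range of 29.3 to 33.2 CPM and the other LDL samples lay below it, at 26.0 to 27.8 CPM. In edgeR its log2 fold change was -0.12 with an SE of 0.0783 (adjusted p = 0.884).

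The implied length of ZNF646 separated the groups where its level did not. It was 7547, 7731, 7834 and 7691 bases in LDL samples 1 to 4, against 7214, 7147, 7361 and 7248 bases in control samples 1 to 4. The annotation has a spliced 3-exon model of 6892 bases and an unspliced 1-exon model of 8118 bases, and all samples lay between them. LDL samples were 53.4% to 76.8% of the way from the first to the second, against 20.8% to 38.2% for control samples. The mean difference was 6.33% of the control length. Groups did not overlap in implied length for 1.42% of the 11820 features with at least 100 counts in every sample, and 6.57% of them had a mean difference at least as large as that of ZNF646. The other 4 neighbours in that set overlapped between groups, KAT8 among them at 1532 ± 16.3 bases in LDL and 1556 ± 11.2 bases in control samples (SD, n = 4 each). With each library also divided by its own median length, a step chosen after seeing the data, KAT8 did not overlap, at 1528 to 1541 bases in LDL and 1549 to 1555 bases in control samples, and nor did 3.45% of the 11820 features.

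BCKDK encodes the kinase that shuts off branched-chain amino acid breakdown. It stood at 97.7, 110.6, 109.4 and 111.3 CPM in LDL samples 1 to 4, against 100.1, 101.2, 99.7 and 97.7 CPM in control samples 1 to 4. LDL sample 1 alone lay in the control range. In edgeR this gave a log2 fold change of 0.11 with an SE of 0.0533 (adjusted p = 0.879). KAT8, the histone H4 acetyltransferase of the MSL and NSL complexes, stood at 49.2 ± 2.54 CPM in LDL and 50.6 ± 1.95 CPM in control samples (SD, n = 4 each; log2 fold change -0.042, SE 0.0608, edgeR adjusted p = 0.954).

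STX4 encodes a syntaxin, a membrane fusion protein of the cell surface. It stood at 39.7, 47.4, 46.8 and 49.0 CPM in LDL samples 1 to 4, against 38.9, 41.5, 41.3 and 40.5 CPM in control samples 1 to 4. LDL sample 1 lay inside the control range and the other LDL samples above it. The log2 fold change was 0.17 (SE 0.0701) with an edgeR unadjusted p of 0.0248 and an adjusted p of 0.849.

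The other serine protease genes of the locus were near the limit of these libraries. PRSS8, which encodes the membrane-anchored protease prostasin, had 25, 19, 14 and 12 counts in LDL samples 1 to 4, against 25, 9, 34 and 25 in control samples 1 to 4. PRSS36, for polyserase-2, had 16, 21, 13 and 23 counts in LDL samples 1 to 4, against 23, 22, 21 and 32 in control samples 1 to 4. Both had overlapping groups and log2 fold changes of -0.21, with SE 0.442 for PRSS8 (edgeR adjusted p = 0.969) and 0.378 for PRSS36 (edgeR adjusted p = 0.961). Errors of this size leave changes of the kind seen in the stronger neighbours undetectable at this depth. Per length PRSS36 was the lowest of the 7 neighbours, at 0.171 FPKM in LDL and 0.197 FPKM in control samples, and PRSS8 next, at 0.253 FPKM in LDL and 0.287 FPKM in control samples. PRSS53 lay above both with LDL and below both without it.

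In a wider window of 500 kb on either side of PRSS53, 31 other features were in the tables and 23 were tested. None passed an adjusted p of 0.05 in edgeR, DESeq2 or limma voom, and 1 had an unadjusted p under 0.05 in edgeR, against 5.59% of all features. Of the 23, 10 lay above and 13 below 0, where 52.3% of all features lay above 0. Their median log2 fold change was -0.033, against 0.0060 over all features. The 23 ran from -0.37 for PYCARD to 0.40 for SLC5A2. No CPM values of these 23 separated the groups, against 3.45% of all features.

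**Figure D5:**
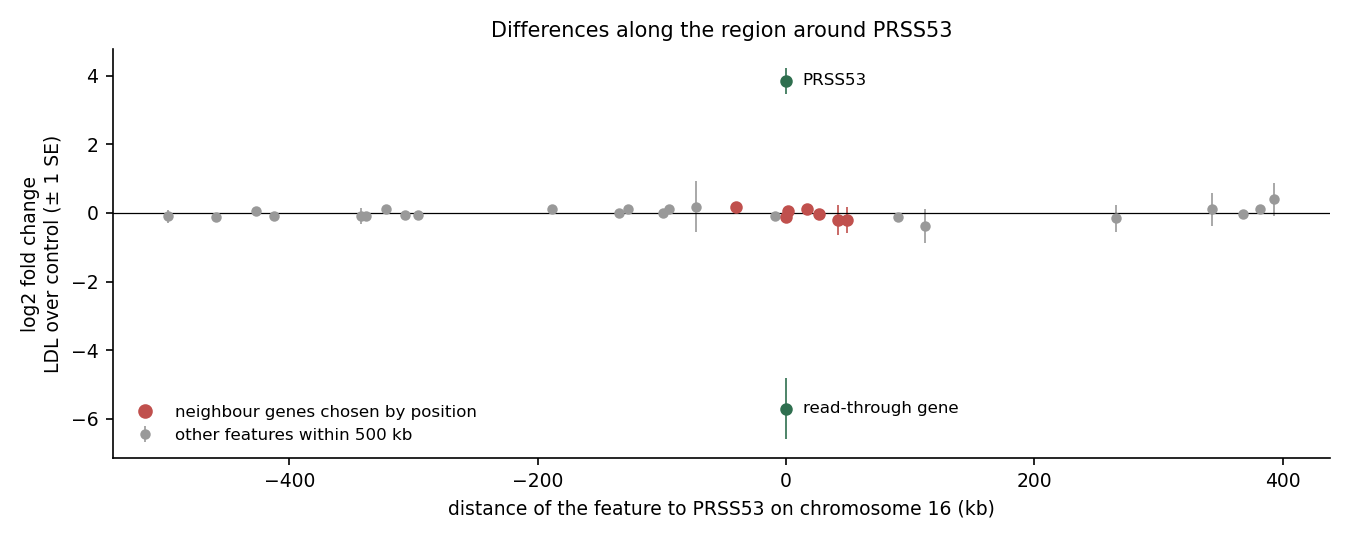
Log2 fold change of LDL over control in edgeR (points, bars 1 SE) against distance to PRSS53 in kb, for 23 other features within 500 kb (grey), the 7 neighbours (red) and PRSS53 with the read-through gene (green). All grey and red points lie between -0.37 and 0.40, while PRSS53 and the read-through gene lie at 3.86 and -5.72.

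Genes that work with the neighbours were counted from lists made with earlier results of these data known. Of 11 tested trypsin-like proteases and inhibitors, PRSS53 was the only one past the threshold, and it was chosen for that. With PRSS53 counted, 2 of the 11 lay above and 9 below 0 (median -0.060), where 52.3% of all features lay above 0 (median 0.0060). Among the other 10, edgeR, DESeq2 and limma voom called 0. In edgeR 0 of these 10 had an unadjusted p under 0.05, against 5.59% of all features. TMPRSS9, another gene for a multi-domain serine protease, had the lowest log2 fold change, with levels of 2.17 ± 0.338 CPM in LDL and 2.67 ± 0.326 CPM in control samples (SD, n = 4 each; log2 fold change -0.30, edgeR adjusted p = 0.884). SPINT2, an inhibitor of such proteases, was at 396 CPM in LDL and 373 CPM in control samples.

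Of 12 tested genes of the vitamin K cycle and its target proteins, 10 lay above 0, against 52.3% of all features. Their median log2 fold change was 0.038, against 0.0060 over all features, and edgeR, DESeq2 and limma voom called none. NQO1, a quinone reductase, had the smallest p, at 252 ± 7.61 CPM in LDL and 233 ± 10.1 CPM in control samples (SD, n = 4 each; log2 fold change 0.11, edgeR adjusted p = 0.849), and it was the 1 member with an unadjusted p under 0.05, against 5.59% of all features. VKORC1L1, the paralog of VKORC1, stood at 41.0 ± 1.74 CPM in LDL and 44.4 ± 1.87 CPM in control samples (SD, n = 4 each; log2 fold change -0.11, edgeR adjusted p = 0.882). The CPM of NQO1 and VKORC1L1, 2 of the 12, did not overlap between groups, against 3.45% of all features.

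Of 12 tested genes of the KAT8 complexes, 10 lay below 0 (median -0.033), where 52.3% of all features lay above 0 (median 0.0060). The same 3 tools called none of the 12 genes. In edgeR 2 of them, KANSL3 and HCFC1, had an unadjusted p under 0.05 (5.59% of all features did), with log2 fold changes of -0.17 each and an adjusted p of 0.822. Of 16 tested genes of branched-chain amino acid breakdown, 8 lay above and 8 below 0 (median -0.0058), none was called, and BCAT2, the mitochondrial aminotransferase, had the smallest p and the only unadjusted one under 0.05, against 5.59% of all features (log2 fold change 0.14, edgeR adjusted p = 0.876). Of 11 tested genes, STX4 and its fusion partners, 9 lay above 0 (median 0.065), against 52.3% of all features. None of the 11 was called by any of the 3 tools. STX4 and the vesicle protein gene VAMP2 (log2 fold change 0.23, edgeR adjusted p = 0.876) had an unadjusted p under 0.05, against 5.59% of all features.

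The features whose pattern over the 8 samples was closest to that of PRSS53 were then found among 13768 named features, by the root mean square difference of centred log2 CPM. The closest were DOC2A (0.922), MSH5-SAPCD1 (1.17) and STARD6 (1.29), where PRSS53 itself varied by 1.96 around its own mean. DOC2A, a calcium sensor of vesicle release, had 11, 17, 10 and 10 counts in LDL samples 1 to 4, against 0, 4, 0 and 6 in control samples 1 to 4. STARD6, a lipid-transfer gene, had 5, 13, 16 and 13 counts in LDL samples 1 to 4, against 0, 16, 0 and 3 in control samples 1 to 4. These are low counts, and the likeness is a description of the 8 samples.

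MSH5-SAPCD1 is a read-through gene as well. Its counts were 409, 404, 286 and 283 in LDL samples 1 to 4, against 57, 77, 96 and 414 in control samples 1 to 4. MSH5, its upstream part, had 274, 311, 278 and 246 counts in LDL samples 1 to 4, against 459, 449, 439 and 269 in control samples 1 to 4. SAPCD1, its downstream part, had 11, 35, 25 and 8 counts in LDL samples 1 to 4, against 130, 83, 75 and 9 in control samples 1 to 4. Where the read-through gene was high its parts were low, and control sample 4 had the values of an LDL sample. Summed over the 3 genes, the counts were 694, 750, 589 and 537 in LDL samples 1 to 4, against 646, 609, 610 and 692 in control samples 1 to 4.

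For the read-through gene of PRSS53, the closest were SLC16A8 (2.16), NDST4 (2.17) and PCDHA10 (2.18), against 3.05 for its own variation. SLC16A8, a monocarboxylate transporter gene, had 5, 3, 7 and 3 counts in LDL samples 1 to 4, against 15, 25, 20 and 27 in control samples 1 to 4.

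Read-through genes elsewhere in the genome were looked at for the same kind of jump between libraries. Besides the one at PRSS53, 521 features of the tables are genes whose annotated transcripts are all read-through transcripts. A count of 0 in at least 1 library with a mean above 50 in the others was found in 33 of them, or 6.33%, against 23 of 22032 other features, or 0.104%. None of the 33 had groups that did not overlap, against 3.45% of all features tested. The 33 were picked for counts of 0 beside high counts, so that share is not a like measure for them. None of the 33 had 3 zeros in one group and no zero in the other. That pattern was taken from the gene at PRSS53, itself chosen for its values, so its absence elsewhere decides nothing. Of the 521, 191 were tested, and 7 of these had groups that did not overlap. Among these 191, edgeR and limma voom called none and DESeq2 called 3 (0.311% of all features). In edgeR 19 had an unadjusted p under 0.05, against 5.59% of all features.

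The largest swings among the 33 were at ENSG00000285920, NME1-NME2 and ENSG00000284820, with ranges of 10.7, 10.5 and 9.27 in log2 CPM. NME1-NME2 joins the genes of a pair of nucleoside diphosphate kinases. Its counts were 2318, 0, 2108 and 2754 in LDL samples 1 to 4, against 2870, 2505, 2895 and 2444 in control samples 1 to 4. In LDL sample 2, where it had no count, NME1 had 6143 and NME2 23952 counts, the highest of the LDL samples for both. The sum of the 3 genes was 30095 counts in LDL sample 2 and 27466 to 30022 in the other LDL samples. ENSG00000285920 had 0, 0, 287 and 0 counts in LDL samples 1 to 4, against 3636, 291, 284 and 0 in control samples 1 to 4. At NME1-NME2 the jump to 0 came in a single library and did not follow the groups. How reads were split between read-through genes and their parts is not given in the sources used here, and its part in the PRSS53 values was not tested.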

How the data were processed

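Per the labels' protocols, libraries were made with a stranded mRNA kit. GRCh38 and the tools featureCounts, HISAT2 and DESeq2 1.26.0 come from the submitters' processing notes, with no roles. The deposited counts were handled as estimated counts (plain counts had been planned for; the test is the same), already whole: 55.17% of values from 1 to 20 are even, and zeros match those of the FPKM table in all but 2 values. The second table holds FPKM, as deposited, already divided by length and depth by the authors. Which tool made either table is not known. No counting setting or annotation version is given in the sources used here.

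Counts were tested with the edgeR 4.0.16 quasi-likelihood test (R 4.3.3, TMM, default filterByExpr, robust, group only, Benjamini-Hochberg over 15432 features). A trial of it on simulated data gave every gene the same spread and changed only well-counted genes. That trial does not cover counts as low as those of PRSS8 and PRSS36. CPM uses TMM-scaled totals. Sums replaced their parts before the fit. Implied lengths use deposited totals, unscaled. Layout and junctions came from GENCODE release 29, promoters from RefSeq. All 9 genes were matched and passed the filter. Named genes were all 9, the member of each list with the smallest p, the 3 features closest to PRSS53 and to its read-through gene, and the 3 read-through genes with the widest range; others (PYCARD, SLC5A2, TMPRSS9, SPINT2, VKORC1L1, HCFC1, VAMP2, NME1, NME2, MSH5, SAPCD1) were chosen after their values were seen. Members and lists were chosen with earlier results of these data known. Alternatives were 2 other scalings, 2 other filters, DESeq2 1.42.0, limma 3.58.1 voom, a replicate block, 3 fits on FPKM and leaving out each sample.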

Additional observations from a re-analysis of the deposited data

Results flagged for a closer look

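A gap between the most distant sample and the rest of its group, large for 4 samples by Dixon's test, was found in 2 of 41 groups of values, where chance gives about 1 in 20. For the read-through gene it was LDL sample 3, at 0.375 CPM where the other LDL samples were at 0. With the others tied at 0, any count above 0 would have been flagged, so this flag adds nothing. For BCKDK it was LDL sample 1, at 97.7 CPM against 109.4 to 111.3 CPM in the other LDL samples.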

How the results depend on the processing

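Over the alternatives tried, no neighbour gene was past the threshold in any fit, and VKORC1, BCKDK, KAT8, ZNF646, PRSS36 and STX4 kept their direction in every fit that tested them. PRSS8 reversed in 1 fit, without control sample 3, and ran from -0.457 to 0.0692 with 1 sample left out. PRSS8 and PRSS36 could not be fitted with a mean FPKM of at least 0.5. The log2 fold change of PRSS53 ran from 3.59 to 4.32 with 1 sample left out, and on the log2(FPKM + 1) and log2(FPKM + 0.1) scales, which understate low genes, it was 1.14 and 3.04. That of the read-through gene ran from -10.59 to -5.30 with 1 sample left out and was -7.25 in limma voom, -1.50 and -3.83 on these FPKM scales. The sum of PRSS53 and the read-through gene ran from -0.85 to -0.50 with 1 sample left out and was -0.36 on the log2(FPKM + 1) scale, with and without a minimum. Sums with VKORC1 stayed between -0.09 and 0.06. Features past the threshold over the whole table numbered 10, against 48 in DESeq2, 2 with the replicate block, 5 and 2 in the FPKM fits with a pseudocount of 0.1 and without a minimum, and 2 to 149 with 1 sample left out (149 without LDL sample 1, 26 without LDL sample 4, 2 without control sample 3); the cause was not tested. Same-numbered samples did not deviate together (correlations from -0.1007 to 0.06019). This cannot show that the samples were not handled in pairs, and the labels do not say. With the block the PRSS53 estimate was 3.95 and the sum with the read-through gene -0.66. Depth limits PRSS8 and PRSS36, at 9 to 34 counts a library, and the control values of PRSS53, at 3 to 17. The implied length of ZNF646 was longer in LDL than in control samples by 5.72% to 7.04% with 1 sample left out and by 6.83% with each library divided by its own median length, where 3.45% of features did not overlap, against 1.42% without that step. These length alternatives were chosen after seeing the data.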
